A study of Homo sapiens with 12 samples.

Results

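The DNA replication genes examined here are 35 genes whose products license replication origins, unwind and copy DNA, load the sliding clamp, join Okazaki fragments and rebuild chromatin behind the fork. They were taken as a list of symbols, and each was represented by the probe set that maps to that symbol alone and has the highest mean over the arrays. All 35 were found among 19775 named genes, and all 35 passed the filter on low signals that left 16099 genes for testing.

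The study measured gene expression with Affymetrix oligonucleotide arrays in 2 human pancreatic cancer cell lines. It asked how PMA, a phorbol ester that activates protein kinase C and that the series describes as an inducer of invasion, changes expression in a line from a primary tumour and in a line from ascites. The 12 arrays form 4 groups of 3. BxPC-3 cells, from a primary tumour, were treated with 1 µM PMA in 0.1% DMSO for 4 h at passages 7, 9 and 11, or left untreated at the same passages. AsPC-1 cells, from ascites, were treated likewise at passages 8, 10 and 12, or left untreated at the same passages. All cells were held overnight in medium with 2.5% foetal calf serum beforehand. No source used here names a vehicle for the untreated cells. Each line is 1 established line, so a difference between them is a difference between these lines and not between primary and metastatic tumours.

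Before S phase, the origin recognition complex with CDC6 and CDT1 loads the MCM helicase onto chromatin, a step called licensing. Geminin and the ubiquitin ligase receptor DTL then hold CDT1 in check, while CDC45, the GINS complex and MCM10 turn the loaded helicase into an active one. Many genes of this machinery are transcribed by E2F factors around the entry into S phase, and their transcripts are high in cultures with many cycling cells.

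The sequence upstream of 6 of the genes is shown. DTL, GMNN, ORC1 and RFC4 passed the test for lower signal after PMA in BxPC-3. MCM6 and PCNA did not pass it, and they carry an E2F word and CCAAT or its complement, as DTL and GMNN do. The sequences are from RefSeq on GRCh38.p14 and give the 250 bases before the gene's start, 5′ to 3′ on the gene's strand. GMNN is shown as a stretch of 30 bases before the second of its annotated starts. Capitals mark the E2F words TTTCGCGC, TTTGGCGC and TTTCCCGC and the word CCAAT, on either strand.
DTL, chr1:212035498-212035747, plus strand: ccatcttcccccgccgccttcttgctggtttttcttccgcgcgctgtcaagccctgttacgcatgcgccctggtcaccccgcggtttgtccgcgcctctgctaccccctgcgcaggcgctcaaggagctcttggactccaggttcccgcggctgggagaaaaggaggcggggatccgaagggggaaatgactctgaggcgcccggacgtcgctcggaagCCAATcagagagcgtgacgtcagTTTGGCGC
GMNN, chr6:24775318-24775347, plus strand: ATTGGctgggtcggtTTTGGCGCgctctca
ORC1, chr1:52404424-52404673, minus strand: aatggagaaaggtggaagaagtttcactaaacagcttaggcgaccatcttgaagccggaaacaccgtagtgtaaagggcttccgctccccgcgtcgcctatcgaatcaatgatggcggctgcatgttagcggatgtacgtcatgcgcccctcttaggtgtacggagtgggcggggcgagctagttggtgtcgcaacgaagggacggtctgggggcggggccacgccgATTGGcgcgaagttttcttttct
RFC4, chr3:186806483-186806732, minus strand: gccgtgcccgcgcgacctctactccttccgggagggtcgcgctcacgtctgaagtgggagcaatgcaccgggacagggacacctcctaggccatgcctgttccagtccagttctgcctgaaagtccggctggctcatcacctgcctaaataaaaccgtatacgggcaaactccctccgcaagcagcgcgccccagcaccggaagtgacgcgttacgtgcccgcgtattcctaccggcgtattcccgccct
MCM6, chr2:135876444-135876693, minus strand: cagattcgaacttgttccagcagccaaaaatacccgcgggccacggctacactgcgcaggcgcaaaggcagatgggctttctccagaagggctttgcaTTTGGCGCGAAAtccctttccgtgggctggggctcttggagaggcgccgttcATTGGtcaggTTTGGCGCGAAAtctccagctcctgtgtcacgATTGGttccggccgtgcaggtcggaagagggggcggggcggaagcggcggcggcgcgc
PCNA, chr20:5126623-5126872, minus strand: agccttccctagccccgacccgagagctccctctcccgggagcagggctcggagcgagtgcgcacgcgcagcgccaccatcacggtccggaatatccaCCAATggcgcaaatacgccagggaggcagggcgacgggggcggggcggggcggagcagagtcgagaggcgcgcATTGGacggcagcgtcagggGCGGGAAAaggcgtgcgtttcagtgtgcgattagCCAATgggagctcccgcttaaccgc

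An E2F word was found in DTL, GMNN, MCM6 and PCNA, and none was found in the window of ORC1 or RFC4. In DTL the word TTTGGCGC ends at the last base before the start. MCM6 holds 4 matches in 2 stretches, because TTTGGCGC overlaps the reverse complement of TTTCGCGC in TTTGGCGCGAAA. Of the 32 replication genes with a window in the table, counted from 250 bases before to 50 after the start, 20 (62.5%) held an E2F word, against 902 of 27305 genes in the table (3.3%). CCAAT or its complement stood in 21 of the 32 (65.6%), against 39.7% of all genes. The word TTTGAA of the cell cycle homology region, which is common in promoters of mitotic genes, stood in 0 of the 32, against 18.2% of all genes and 12 of 17 genes of a mitosis list. These matches describe letters in a window and were not tested for binding.

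Several features of the arrays bear on the values. The 6 epithelial markers EPCAM, CDH1, KRT7, KRT8, KRT18 and KRT19 had signals of at least 56.9 on all 12 arrays, a range whose low end belongs to KRT7 in AsPC-1. In BxPC-3 the summed signal was 145 to 201 with PMA and 149 to 232 untreated for 6 fibroblast markers, and 36.0 to 47.7 with PMA and 33.6 to 43.7 untreated for 5 leukocyte markers. In AsPC-1 those sums were 1353 to 3426 with PMA and 1545 to 3249 untreated for the fibroblast markers, most of it LUM, and 1958 to 2485 with PMA and 1980 to 2768 untreated for the leukocyte markers, most of it LYZ. The sum of 3 endothelial markers was 45.7 to 69.2 with PMA and 37.2 to 56.7 untreated in BxPC-3, and 32.5 to 46.6 with PMA and 25.5 to 48.6 untreated in AsPC-1. Other such markers reached highs of 91.8 (COL1A1), 57.7 (COL3A1) and 63.6 (PECAM1) in BxPC-3 and 64.1 (CD14) in AsPC-1. From the same lists, PTPRC, COL1A2 and CDH5 stayed at or below 9.86, 12.7 and 11.7. AsPC-1 PMA replicate 1, from passage 8, stood apart: across genes it correlated at a mean r of 0.935 with the other AsPC-1 PMA arrays and at 0.969 with the passage 8 untreated array. Results that rest on it are therefore also given without it where a call or a count of calls changes. That fit keeps the untreated array of passage 8, so the AsPC-1 groups are then of unequal size and no longer matched by passage. This untreated array was the lowest of its group for CDC6, MCM6, MCM10 and PCNA. It was the highest for CDT1, ORC1 and PRIM1. The 3′ over 5′ ratio of ACTB signal was 1.84, 1.99 and 2.02 in BxPC-3 with PMA and 2.56, 2.95 and 4.14 in untreated BxPC-3. In AsPC-1 it was 2.12, 2.32 and 1.79 with PMA and 2.22, 2.27 and 2.24 untreated. Its part in the results was not tested.

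In BxPC-3, PMA lowered 4 of the 35 replication genes and raised none, at an adjusted p under 0.05 over all genes tested. Over all genes, 3.3% passed in the lower direction and 2.52% in the higher. The 4 were DTL, the receptor of the ubiquitin ligase that marks CDT1 for destruction; GMNN, which encodes the CDT1 inhibitor geminin; ORC1, the largest subunit of the origin recognition complex; and RFC4, a subunit of the clamp loader. The median log2 change of the 35 was -0.45, against 0 over all genes tested, and 29 of 35 were negative. The arrays measured whole cultures, so fewer cells that carry a transcript and less of it per cell cannot be told apart.

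DTL had signals of 96.3, 71.2 and 95.5 in BxPC-3 with PMA, against 337, 311 and 300.5 untreated. GMNN had 618, 446 and 625 with PMA, against 1476, 1533 and 1536 untreated. Every PMA array lay below every untreated array for both genes. On the log2(signal + 3) scale DTL fell by 1.83 ± 0.30 (SE, adjusted p = 0.00366), or 3.55-fold, and GMNN fell by 1.44 ± 0.27 (adjusted p = 0.00821), or 2.71-fold. ORC1 had 32.5, 37.6 and 33.5 with PMA, against 123, 100 and 86.0 untreated, a fall of 1.49 ± 0.39 (adjusted p = 0.0418). RFC4 had 270, 172 and 281 with PMA, against 532, 505 and 489 untreated, a fall of 1.10 ± 0.28 (adjusted p = 0.0378). The groups of ORC1 and RFC4 did not overlap either. DTL and GMNN passed under all 23 alternative settings in which they were tested, with adjusted p-values up to 0.0251 and 0.0449. Their probe sets are all marked s, which may also read related transcripts, so neither was tested where such probe sets were left out. ORC1 and RFC4 passed in that setting. They lost the call, however, when any 1 of the 6 BxPC-3 arrays, or AsPC-1 untreated replicate 2 or 3, was left out (adjusted p over all alternatives 0.000392 to 0.15 for ORC1 and 0.000234 to 0.157 for RFC4).

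**Figure D1:**
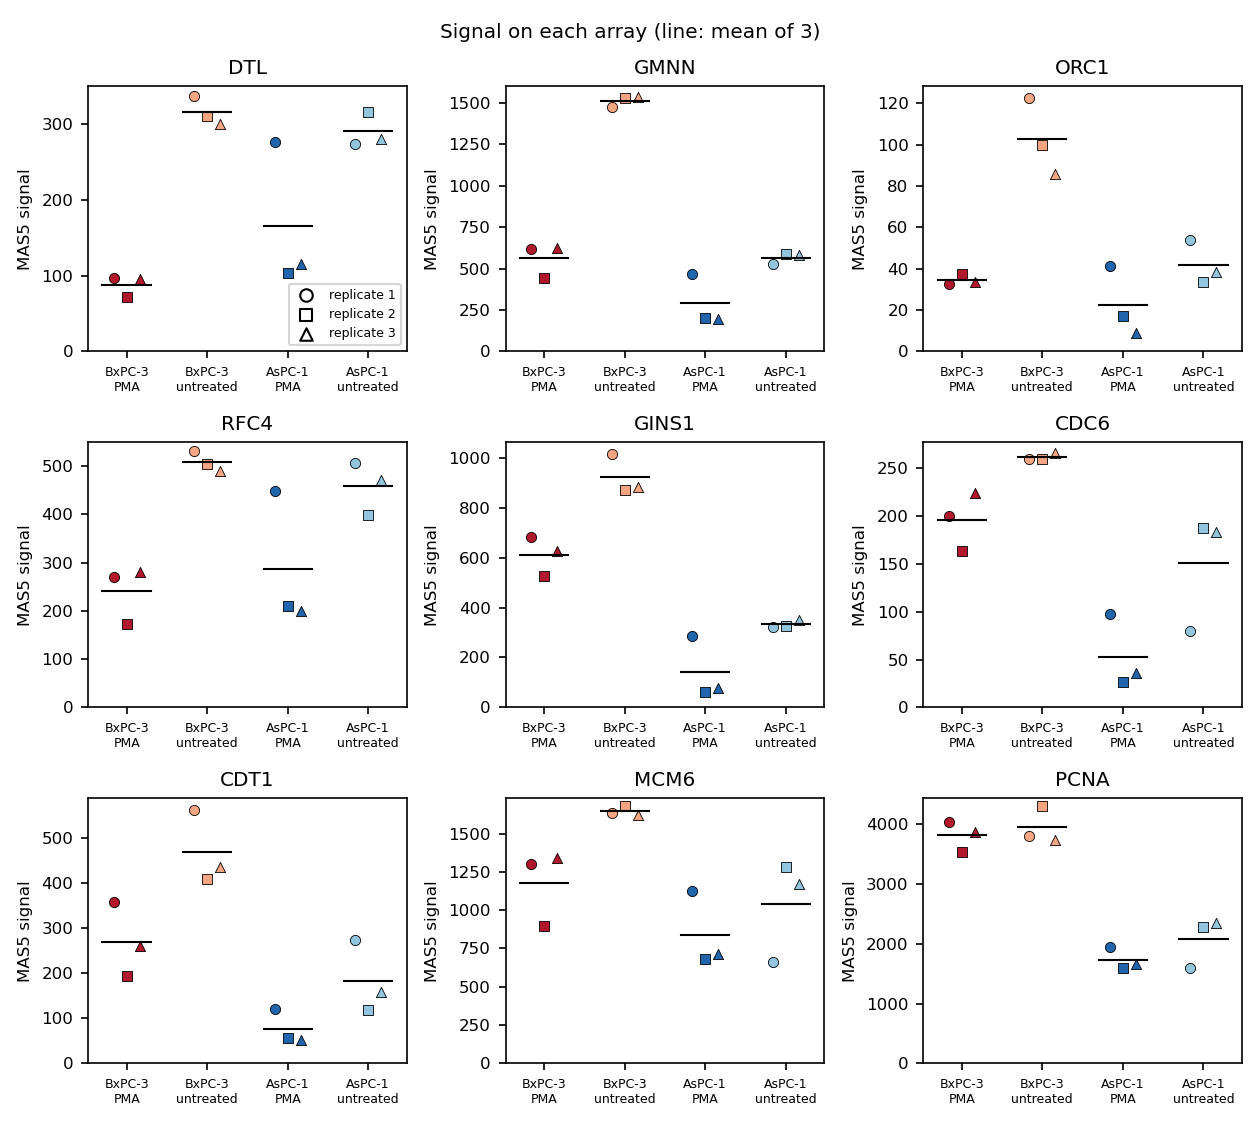
MAS5 signal of 9 replication genes on each of the 12 arrays, on a linear axis from 0, with symbols for replicates 1 to 3 and a line at each group's mean. DTL, GMNN, ORC1 and RFC4 are lower on every BxPC-3 PMA array than on any untreated BxPC-3 array, PCNA overlaps between them, and AsPC-1 PMA replicate 1 sits near the untreated AsPC-1 arrays for DTL, GMNN, RFC4 and GINS1.

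The other licensing genes of BxPC-3 did not pass the threshold. CDT1, which carries the helicase to origins, had 358, 193 and 260 with PMA, against 563, 408 and 436 untreated, a log2 change of -0.82 ± 0.36 (adjusted p = 0.212). CDC6, the ATPase that loads the helicase with CDT1, had 200.2, 164 and 224 with PMA, against 259, 260 and 266 untreated (-0.42 ± 0.41, adjusted p = 0.621). Neither gene's groups overlapped. ORC2, another subunit of the origin recognition complex, had a log2 change of -1.03 ± 0.29 (adjusted p = 0.0586), and ORC6 one of 0.11 ± 0.25.

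Of the 6 subunits of the helicase itself, 0 passed in BxPC-3, against 3.3% of all genes lower and 2.52% higher. A count of 0 among 6 genes is near those shares and does not set the subunits apart. Their median log2 change was -0.09. MCM2 had 653, 450 and 624 with PMA, against 825, 809 and 699.6 untreated. MCM6 had 1299, 893 and 1341 with PMA, against 1636, 1681 and 1620 untreated. For these 2 genes the groups did not overlap, with log2 changes of -0.45 ± 0.28 and -0.51 ± 0.26. MCM3 had 461, 391 and 486 with PMA and 534, 460.5 and 428 untreated. MCM4 had 675, 495 and 796 with PMA and 750.1, 579 and 616 untreated. MCM5 had 442, 297 and 384 with PMA and 478, 379 and 337 untreated. These 3 overlapped between the groups, as did MCM7, which had 948, 702 and 998 with PMA and 1013, 973 and 740 untreated; the log2 changes of these 4 were -0.09, 0.00, -0.09 and -0.05 in the order given.

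The 6 factors that activate the helicase also gave no call in BxPC-3, which is again near the 3.3% of all genes lower and 2.52% higher. CDC45 had 228, 98.5 and 198 with PMA and 147, 171 and 128 untreated, so the groups overlapped (0.15 ± 0.31). MCM10 had a log2 change of -0.86 ± 0.38 (adjusted p = 0.212), and the 4 GINS subunits ranged from -0.60 for GINS1 to 0.06 for GINS4. Among polymerase genes the change was -1.27 ± 0.44 for the primase PRIM1 (adjusted p = 0.111), -0.71 and -0.73 for the subunits POLA2 and POLE2, and -0.36 for the catalytic POLA1. PCNA, the sliding clamp and the brightest of the 35, had 4041, 3534 and 3878 with PMA and 3795, 4303 and 3739 untreated, a log2 change of -0.05 ± 0.15 (adjusted p = 0.903). Its groups overlapped. The clamp loader subunits RFC2, RFC3 and RFC5 had changes of 0.04, -0.51 and -0.91, and none passed.

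The remaining members in BxPC-3 were FEN1, the nuclease that trims Okazaki fragments (-0.36), LIG1, the ligase that seals them (0.25), the histone chaperone subunits CHAF1A (-0.47) and CHAF1B (-0.19), UHRF1, which brings maintenance methylation to new DNA (-0.32), and the fork protection factors TIPIN (-0.53) and CLSPN (0.64). None passed. In all, 19 of the 35 had every PMA array below every untreated array, against 21.9% of all genes, and 2 (CLSPN and LIG1) had every PMA array above, against 17% of all genes. At an unadjusted p under 0.05 there were 11 of 35, against 20.9% of all genes. With the passage as a replicate block, 8 of 35 were lower (CDT1, ORC2, PRIM1 and RFC5 in addition), against 6.06% of all genes. Without AsPC-1 PMA replicate 1, whose deviation enters the shared estimate of the spread, 10 of 35 were lower in BxPC-3 (GINS1, MCM10, ORC2, POLA2, POLE2 and PRIM1 in addition), against 9.17% of all genes.

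**Figure D2:**
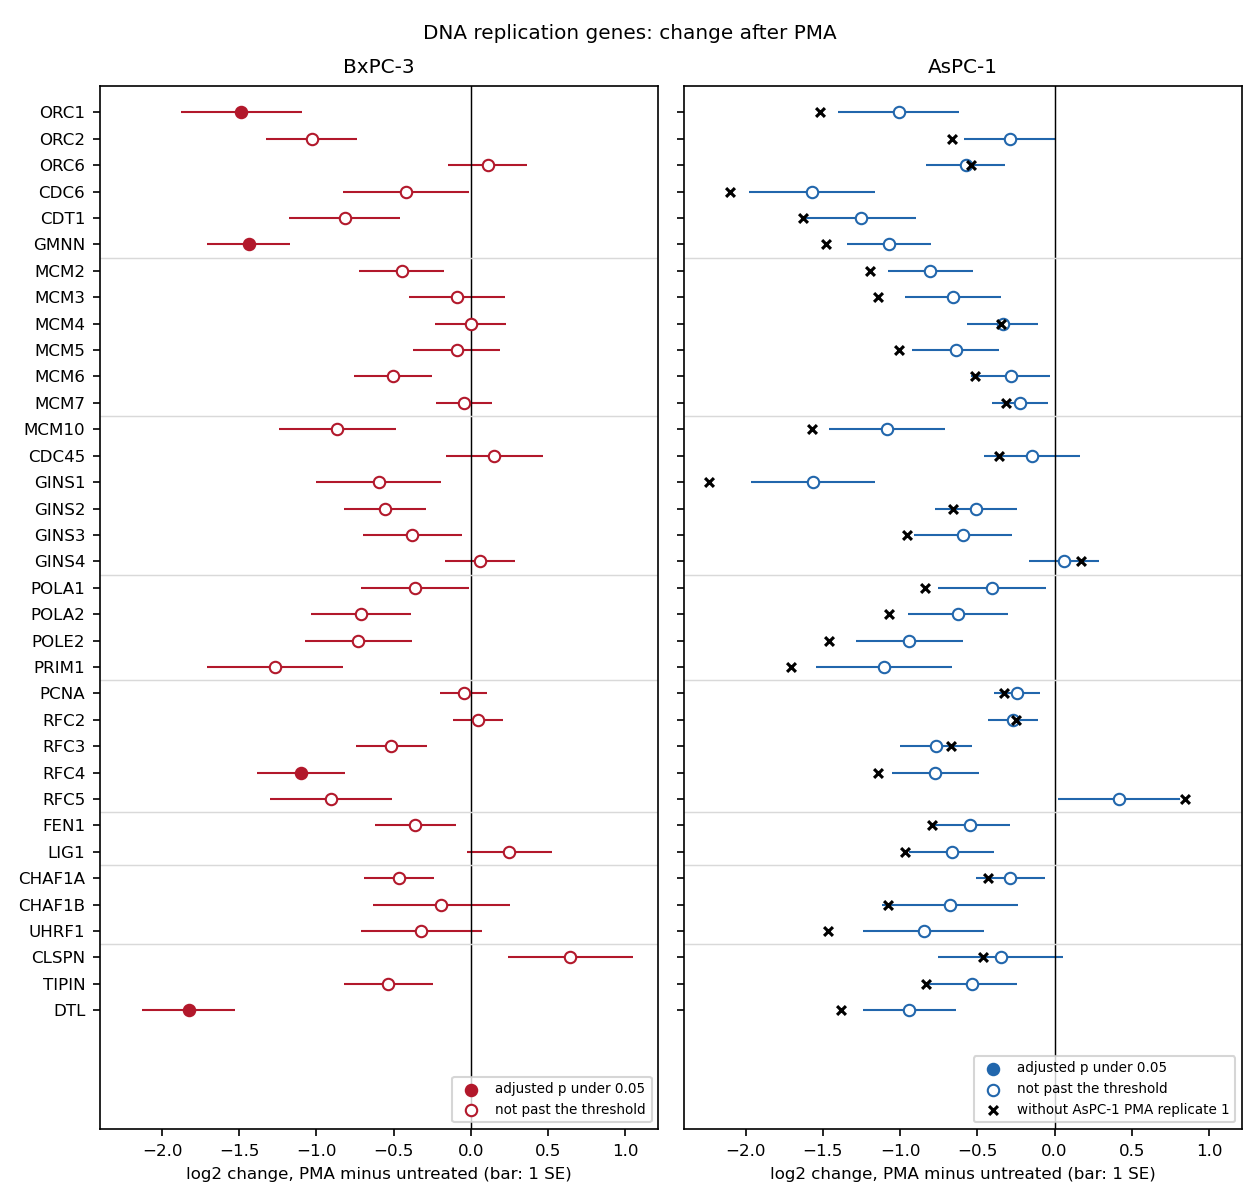
Log2 change with PMA (PMA minus untreated, bar 1 SE, zero line drawn) for the 35 genes, grouped by role from licensing at the top to fork protection and CDT1 turnover at the bottom, with BxPC-3 on the left and AsPC-1 on the right. Filled points passed an adjusted p of 0.05: DTL, GMNN, ORC1 and RFC4 in BxPC-3 and none in AsPC-1, where crosses give the change without PMA replicate 1.

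In AsPC-1, 0 of the 35 replication genes passed in limma with all arrays, against 0.721% of all genes in the lower direction and 1.24% in the higher, although 33 of 35 changes were negative and their median was -0.62, against -0.10 over all genes. At an unadjusted p under 0.05 there were 16 of 35, against 16.5% of all genes. The most negative changes were those of CDC6 and of GINS1, a subunit of the GINS complex. Without PMA replicate 1, 21 of 35 were lower, against 13.5% of all genes, and the median was -0.96. Passage as a replicate block gave 5 lower genes (CDT1, GINS1, GMNN, PRIM1 and RFC3), against 2.83% of all genes.

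GINS1 had signals of 286, 61.3 and 76.1 in AsPC-1 with PMA, against 324, 328 and 349 untreated. CDC6 had 97.7, 26.2 and 35.4 with PMA, against 80.2, 188 and 184 untreated. PMA replicate 1 was the highest of the PMA arrays for both, and for CDC6 the untreated array of the same passage was the lowest of its group, so the CDC6 groups overlapped. The log2 change of GINS1 was -1.57 ± 0.40 (adjusted p = 0.068) with all arrays and -2.24 without PMA replicate 1 (adjusted p = 7.25e-07). That of CDC6 was -1.57 ± 0.41 (adjusted p = 0.0705) and -2.10 without that array (adjusted p = 0.000291). Over the 24 alternatives each passed in 3.

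GMNN had 470, 203 and 198 in AsPC-1 with PMA, against 527, 588 and 579 untreated, a log2 change of -1.07 ± 0.27 (adjusted p = 0.0634) with no overlap between the groups. CDT1 had 121, 56.6 and 50.6 with PMA, against 273, 118 and 157 untreated (-1.25 ± 0.36, adjusted p = 0.0994). A second, dimmer CDT1 probe set gave -0.415, and -0.569 without PMA replicate 1. DTL had 277, 104 and 115 with PMA, against 274, 317 and 281 untreated (-0.94 ± 0.30, adjusted p = 0.134). The DTL signal of PMA replicate 1 lay within the untreated range, and those of the other PMA arrays lay far below it. ORC1 had 41.5, 17.1 and 8.78 with PMA, against 54.1, 33.3 and 38.4 untreated (-1.01 ± 0.39), and RFC4 had 448, 210 and 199 with PMA, against 506, 398 and 471 untreated (-0.77 ± 0.28). Both overlapped between the groups. Without PMA replicate 1 all 5 passed, with changes of -1.48 for GMNN (adjusted p = 2.24e-05), -1.63 for CDT1 (adjusted p = 0.00222), -1.38 for DTL (adjusted p = 0.000105), -1.52 for ORC1 (adjusted p = 0.00263) and -1.15 for RFC4 (adjusted p = 0.00106).

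The helicase subunits of AsPC-1 split in the same way by array. MCM2 had 347, 147 and 158 with PMA, against 378, 363 and 320 untreated. MCM3 had 325, 117 and 116 with PMA, against 266, 262 and 253 untreated. MCM5 had 181, 80.6 and 86.1 with PMA, against 160, 174 and 178 untreated. For these 3, PMA replicates 2 and 3 lay below all untreated arrays and replicate 1 within or above the untreated range, and all 3 passed without replicate 1 (-1.19, -1.14 and -1.01). MCM6 had 1127, 681 and 715 with PMA, against 663, 1280 and 1169 untreated. MCM4 had 254, 242 and 253 with PMA, against 224, 386 and 367 untreated. MCM7 had 509, 405 and 439 with PMA, against 586, 503 and 492 untreated. These 3 overlapped between the groups and did not pass without PMA replicate 1 (-0.51, -0.35 and -0.32). Untreated replicate 1, kept in that fit, was the lowest of its group for MCM6 and MCM4. With PMA and untreated replicate 1 both left out, MCM6 (-0.81, adjusted p = 0.00227 in limma) and MCM4 (-0.60, adjusted p = 0.0367) passed, and MCM7 did not.

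PCNA in AsPC-1 had 1945, 1592 and 1668 with PMA, against 1593, 2285 and 2352 untreated (-0.24 ± 0.15, adjusted p = 0.461). CDC45 had 107, 59.6 and 76.5 with PMA, against 71.8, 105 and 88.3 untreated (-0.14 ± 0.31). Both overlapped. Groups that did not overlap were seen for 5 of 35 genes, all lower with PMA (GMNN, GINS1, ORC6, RFC2 and RFC3), against 8.37% of all genes. Of the other members, PRIM1 (-1.10), MCM10 (-1.09), POLE2 (-0.94) and UHRF1 (-0.85) had the most negative changes, and RFC5 (0.42) and GINS4 (0.06) were the 2 positive ones. The members not yet given lay between -0.27 and -0.77. Without PMA replicate 1, PRIM1 (-1.70), MCM10 (-1.57), POLE2 (-1.46) and UHRF1 passed, as did FEN1, GINS3, LIG1, ORC2, POLA1, POLA2 and TIPIN, whose changes ran from -0.67 for ORC2 to -1.07 for POLA2. PCNA (-0.33), CDC45 (-0.36), RFC5 (0.85) and GINS4 (0.17) did not pass without it either. That fit keeps the untreated array of passage 8, the lowest of its group for PCNA. With both passage 8 arrays left out, PCNA passed (-0.51, adjusted p = 0.00346 in limma), and CDC45, RFC5 and GINS4 did not.

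Pairing each PMA array with the untreated array of its passage shows where the 2 lines and their passages stood. In BxPC-3, 30, 32 and 23 of the 35 genes were lower with PMA at passages 7, 9 and 11, with medians of -0.37, -0.74 and -0.23. In AsPC-1 it was 14, 33 and 32 of 35 at passages 8, 10 and 12, with medians of 0.09, -0.91 and -1.01. Over all genes the share that was lower lay between 48.4% and 58.3% in the 6 pairs. CDT1 was the most negative gene at passage 8 (-1.16), and it was also lower at passages 10 and 12 (-1.02 and -1.58). The mean log2(signal + 3) of the 35 genes was 7.60, 6.75 and 6.73 on the AsPC-1 PMA arrays, against 7.55, 7.71 and 7.72 on the untreated ones. CDKN1A, which encodes the kinase inhibitor p21, was higher with PMA in the passage 8 pair as well (613 with PMA, 45.1 untreated).

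**Figure D3:**
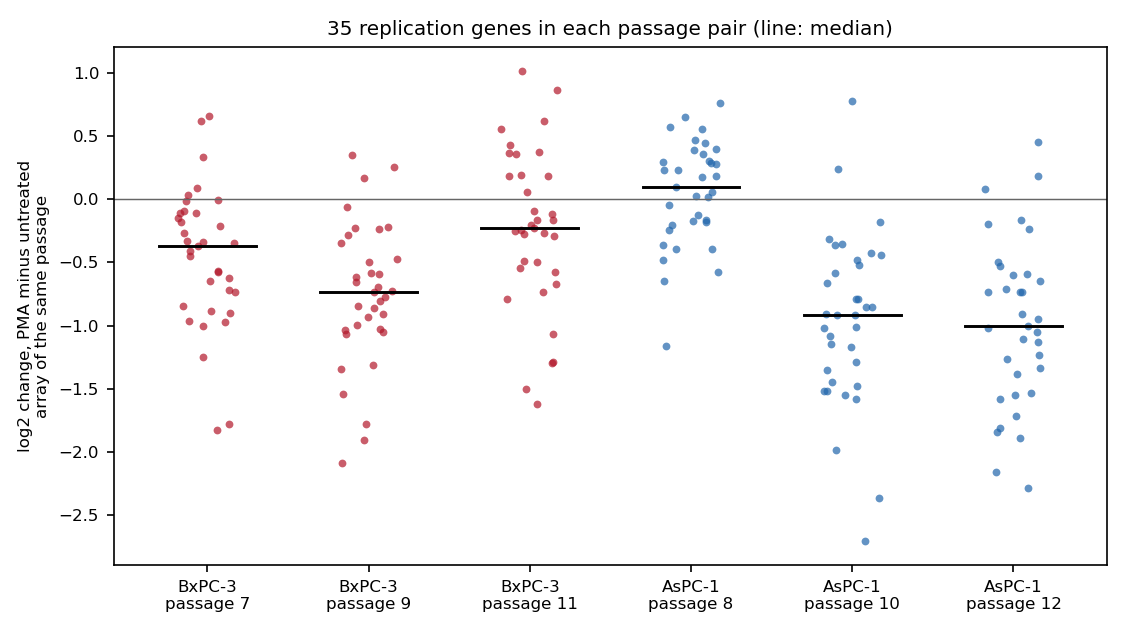
Log2 change of each of the 35 genes between the PMA array and the untreated array of the same passage, 1 column per passage pair, BxPC-3 in red and AsPC-1 in blue, with a line at the median. The passage 8 pair of AsPC-1 has a median of 0.09, and the other 5 pairs have medians between -0.23 and -1.01.

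The difference of the PMA responses (BxPC-3 minus AsPC-1) passed for 0 of the 35 genes in limma, against 0.491% of all genes, and at an unadjusted p under 0.05 for 2 (LIG1 and RFC5), against 8.91% of all genes. None of the 4 genes that fell in BxPC-3 had a difference past the threshold: -0.89 ± 0.42 for DTL, -0.37 ± 0.38 for GMNN, -0.48 ± 0.55 for ORC1 and -0.33 ± 0.40 for RFC4. Their falls are therefore not shown to differ from the changes in AsPC-1. Without AsPC-1 PMA replicate 1, 5 of 35 passed, all more negative in AsPC-1 (CDC6, GINS1, LIG1, MCM3 and UHRF1), against 2.54% of all genes. With passage as a replicate block 1 passed, RFC5 (-1.32, adjusted p = 0.0418, range over the alternatives 0.0219 to 0.776), against 0.342% of all genes.

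The probe sets of RFC5 disagreed. The probe set used, the brightest, had 507, 270 and 371 in BxPC-3 with PMA, against 844, 676 and 593 untreated, and 706, 1851 and 1626 in AsPC-1 with PMA, against 538, 1079 and 1540 untreated. Its log2 change was -0.91 in BxPC-3 and 0.42 in AsPC-1. The other 2 RFC5 probe sets had -0.74 and -0.26 in BxPC-3 and -0.45 and -0.60 in AsPC-1. Of the 19 members with several probe sets, the probe sets had 1 direction in 11 for PMA in BxPC-3 and in 15 for PMA in AsPC-1. DTL had 2 probe sets, with -1.83 and -1.37 in BxPC-3, and GMNN, ORC1 and RFC4 had 1 each.

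More of the genes differed between the lines than with PMA. After PMA, 24 of 35 replication genes were higher in BxPC-3 than in AsPC-1 (18.3% of all genes) and 2 were lower (15.2% of all genes), with a median log2 difference of 1.05, against 0.03 over all genes. In untreated cells 22 of 35 were higher in BxPC-3 (16.8% of all genes) and none were lower (15.6% of all genes), with a median of 0.88, against -0.08 over all genes. The 2 comparisons use different arrays, and the first holds AsPC-1 PMA replicate 1. Without that array 29 were higher in BxPC-3 after PMA (23.8% of all genes) and 2 lower (16.9% of all genes), with a median of 1.37: CHAF1A, CHAF1B, MCM6, ORC1, POLA2 and PRIM1 passed in addition and GINS4 no longer did. In untreated cells, where the array enters through the shared estimate of the spread alone, 26 were then higher (21.1% of all genes), with CDC45, CDC6, MCM3 and UHRF1 in addition. With all arrays, every BxPC-3 array lay above every AsPC-1 array for 22 genes after PMA and for 27 genes untreated, against 22.9% and 25.1% of all genes.

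GINS3 and GINS1, subunits of the GINS complex, had the largest differences after PMA, and GINS3 had the largest in untreated cells. GINS3 had 206, 180 and 253 in BxPC-3 with PMA, against 50.1, 26.9 and 17.5 in AsPC-1 with PMA, a log2 difference of 2.74 ± 0.32 (adjusted p = 1.74e-05). Untreated, it had 340, 277 and 220 in BxPC-3, against 38.5, 41.9 and 56.9 in AsPC-1 (2.53 ± 0.32, adjusted p = 3.62e-05). With the probe set used, GINS3 was 6.69-fold higher in BxPC-3 after PMA and 5.77-fold higher untreated, on the log2(signal + 3) scale. Its other probe set, nearly as bright, gave smaller log2 differences of 1.65 after PMA and 1.85 untreated. GINS1 had 683, 527 and 627 in BxPC-3 with PMA, against 286, 61.3 and 76.1 in AsPC-1 with PMA (2.43 ± 0.40, adjusted p = 0.000362). Untreated, it had 1016, 872 and 885 in BxPC-3, against 324, 328 and 349 in AsPC-1 (1.46 ± 0.40, adjusted p = 0.013). Neither gene overlapped between the lines in either state. With AsPC-1 PMA replicate 1 left out, the differences after PMA were 3.11 for GINS3 (adjusted p = 5.54e-07) and 3.10 for GINS1 (adjusted p = 4.97e-09). The subunit GINS4 differed less, by 0.68 ± 0.23 after PMA (adjusted p = 0.0321, and 0.57 with adjusted p = 0.065 without that array) and by 0.68 ± 0.23 untreated (adjusted p = 0.0333). Its other probe sets ran from 0.09 to 1.53 after PMA and from 0.08 to 1.20 untreated, and the nearly equally bright one gave 0.09 and 0.22. Of 24 alternatives, GINS4 lost the call in 8 after PMA and in 9 untreated.

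After PMA the next largest rises in BxPC-3 over AsPC-1 were those of CLSPN, CDC6 and CDT1. CLSPN, the adaptor of the replication checkpoint, had 40.1, 45.2 and 45.9 in BxPC-3, against 8.62, 1.94 and 14.1 in AsPC-1 (2.23 ± 0.41, adjusted p = 0.000737). Its AsPC-1 signals lay around the 40th percentile of the arrays (8.18 to 10.2), and its other 3 probe sets, all dim, gave smaller differences of 1.15, 0.45 and 0.30. Over the alternatives its difference ran from 1.03 to 2.62. CDC6 differed by 2.03 ± 0.41 (adjusted p = 0.00159) and CDT1 by 1.85 ± 0.36 (adjusted p = 0.0012). The second CDT1 probe set, dimmer with mean signals of 25.9 in BxPC-3 and 21.6 in AsPC-1 with PMA, gave only 0.23. Over the alternatives the CDT1 difference ran from 1.04 to 2.23. RFC5 (-1.79 ± 0.40, adjusted p = 0.00314) and ORC2 (-1.13 ± 0.29, adjusted p = 0.00916) were the 2 genes lower in BxPC-3. ORC2 had 80.8, 81.7 and 62.7 in BxPC-3 with PMA, against 283, 136 and 120 in AsPC-1 with PMA. The RFC5 difference rests on the probe set used, since the other 2 probe sets of RFC5 gave -0.005 and -0.054 after PMA. ORC2 had a second probe set, and with the mean of both ORC2 no longer passed. Leaving out AsPC-1 PMA replicate 1 gave differences of 2.35 for CLSPN, 2.56 for CDC6, 2.23 for CDT1, -2.22 for RFC5 and -0.75 for ORC2, and all 5 passed.

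In untreated cells GINS2, GMNN and CDT1 completed the 5 largest rises. GINS2 had 426, 426 and 378 in BxPC-3, against 88.1, 178 and 160 in AsPC-1 (1.57 ± 0.27, adjusted p = 0.000443). GMNN, with the untreated signals given above, differed by 1.42 ± 0.27 (adjusted p = 0.00111), and CDT1 by 1.42 ± 0.36 (adjusted p = 0.00779). The 3 genes did not overlap between the lines. For CDT1 the dimmer probe set gave a smaller difference of 0.58. GINS2 has 2 further probe sets, both dim, which differed in direction. One had mean signals of 4.77 in BxPC-3 and 16.9 in AsPC-1 and gave -1.35 (adjusted p = 0.0341 where probe sets that can hit related transcripts were left out), and the other had 16.9 in BxPC-3 and 8.23 in AsPC-1 and gave 0.81.

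The line difference was read by role, with no test between roles, against 18.3% of all genes higher in BxPC-3 after PMA and 16.8% untreated. All 6 activating factors passed after PMA and 5 of 6 untreated (CDC45 did not), and 5 of the 6 helicase subunits passed in each state (all but MCM6 after PMA and all but MCM3 untreated). With passage as a replicate block, 3 of the 6 activating factors passed untreated (GINS1, GINS2 and GINS3). Of the 6 licensing genes 4 were higher in BxPC-3 in each state, and ORC2 was lower after PMA. FEN1 and LIG1 both passed after PMA, and FEN1 untreated. PCNA was higher in BxPC-3 in both, by 1.14 ± 0.15 after PMA (adjusted p = 5.36e-05) and 0.94 ± 0.15 untreated (adjusted p = 0.000262). The primase PRIM1, POLA2, RFC2, RFC4 and CHAF1B passed in neither state with all arrays. DTL had -0.76 ± 0.30 after PMA (adjusted p = 0.0673, and -0.32 with adjusted p = 0.167 without AsPC-1 PMA replicate 1) and 0.12 ± 0.30 untreated, so it did not pass in either.

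**Figure D4:**
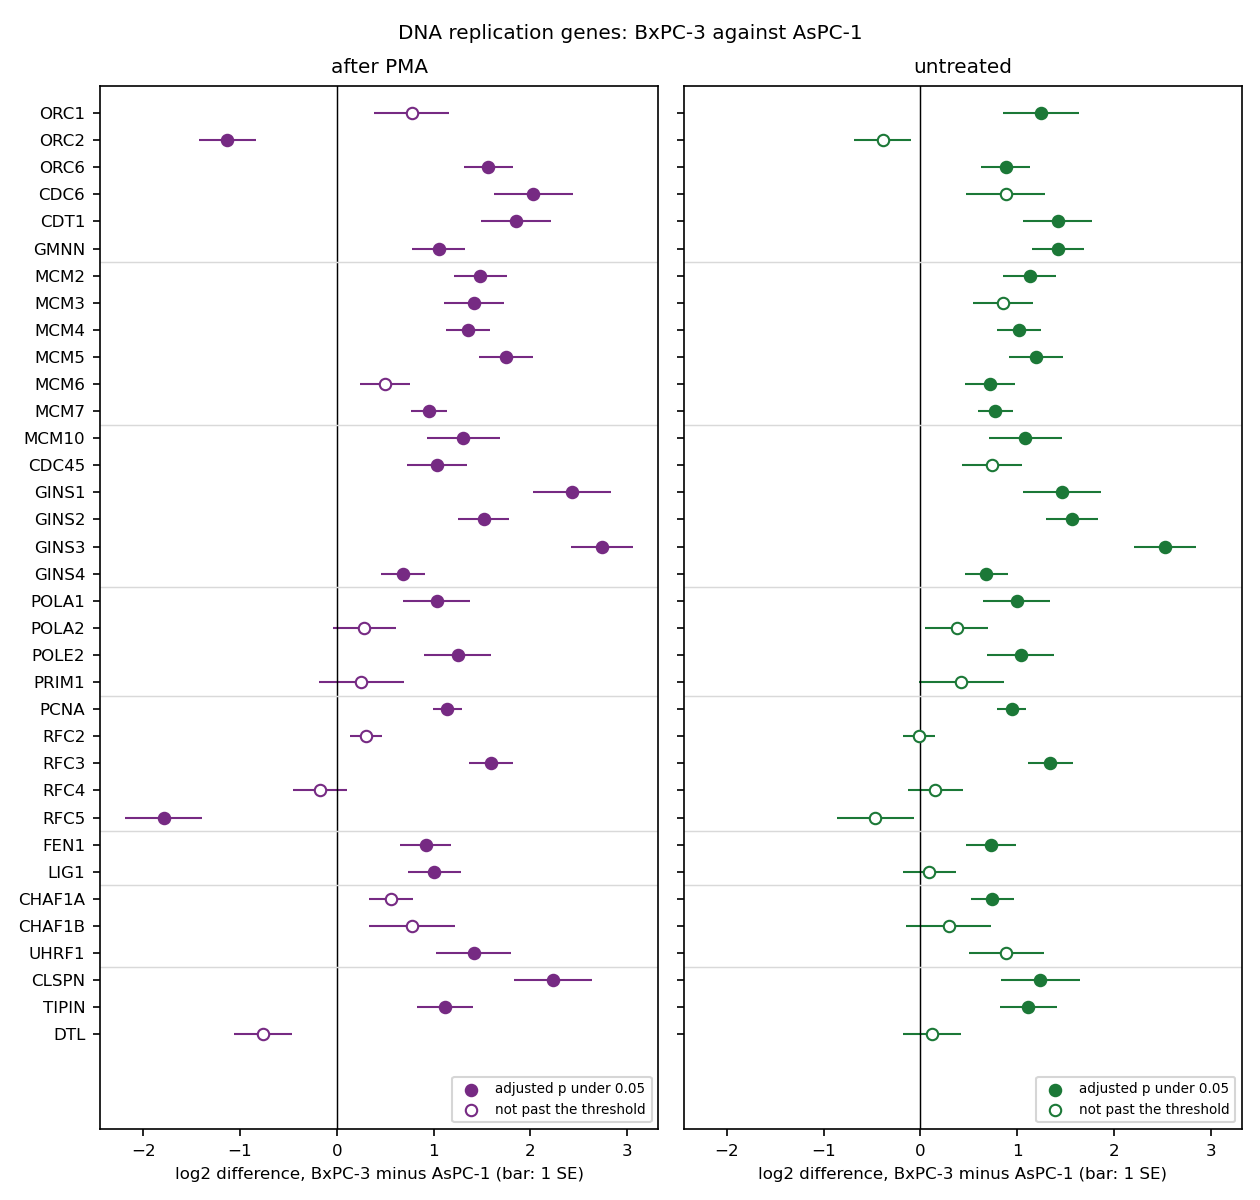
Log2 difference between the lines (BxPC-3 minus AsPC-1, bar 1 SE, zero line drawn) for the 35 genes by role, after PMA on the left and untreated on the right. Filled points passed an adjusted p of 0.05, 26 after PMA and 22 untreated, and GINS3 is the farthest to the right in both.

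Further genes of the same process were read from lists beside the 35. Of 26 further replication genes, 3 fell with PMA in BxPC-3, against 3.3% of all genes: ORC5, a subunit of the origin recognition complex (-1.36 ± 0.34, adjusted p = 0.0335), DSCC1, of an alternative clamp loader (-1.14 ± 0.28, adjusted p = 0.032), and the nuclease and helicase DNA2 (-0.95 ± 0.22, adjusted p = 0.0206). In AsPC-1 2 fell, against 0.721% of all genes, DSCC1 (-1.23 ± 0.28, adjusted p = 0.0435) and POLD3, a subunit of polymerase delta (-1.09 ± 0.23, adjusted p = 0.0332). The medians of the 26 were -0.27 in BxPC-3 and -0.31 in AsPC-1. In the fit without that passage 8 PMA array of AsPC-1, 6 fell in BxPC-3, against 9.17% of all genes, and 11 in AsPC-1, against 13.5%. Of 9 tested genes that supply nucleotides, DCK, the deoxycytidine kinase, fell in BxPC-3 (-0.97 ± 0.19, adjusted p = 0.00974) and 0 passed in AsPC-1. RRM2, a subunit of ribonucleotide reductase, and TYMS, thymidylate synthase, had -0.44 and -0.22 in BxPC-3 and -0.57 and -0.55 in AsPC-1, with no call. DCK fell in AsPC-1 too without AsPC-1 PMA replicate 1 (-0.78, adjusted p = 0.00242), and the AsPC-1 changes of RRM2 and TYMS were then -0.075 and -0.48, still with no call.

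Among 28 regulators of the entry into S phase, 2 passed in BxPC-3 and 4 in AsPC-1, against 5.82% and 1.96% of all genes in either direction. Without AsPC-1 PMA replicate 1, 1 rose and 8 fell in BxPC-3, and 4 rose and 10 fell in AsPC-1, against 14.9% and 19.5% of all genes in either direction. CDKN1A rose in both lines. It had 2491, 2339 and 2342 in BxPC-3 with PMA, against 281, 328 and 246 untreated (3.06 ± 0.58, adjusted p = 0.0083). In AsPC-1 it had 613, 2660 and 2809 with PMA, against 45.1, 239 and 194 untreated (3.66 ± 0.58, adjusted p = 0.00765). Both passage 8 arrays of AsPC-1 were the lowest of their groups. E2F8, a repressor of the E2F family, fell in BxPC-3 (-1.18 ± 0.30, adjusted p = 0.0357). In AsPC-1 E2F8 had 114, 59.6 and 63.5 with PMA, against 178, 175 and 204 untreated. Those groups did not overlap, but E2F8 did not pass there with all arrays. It passed as lower in AsPC-1 with passage as a replicate block, and also without AsPC-1 PMA replicate 1. CCNA2, the S phase cyclin (-1.94 ± 0.32, adjusted p = 0.00877), SKP2, of the ligase that degrades p27 (-1.08 ± 0.25, adjusted p = 0.0459), and DBF4, the activator of CDC7 (-0.92 ± 0.14, adjusted p = 0.00726), fell in AsPC-1. In BxPC-3 these had -1.12 (adjusted p = 0.0564), -0.75 and -0.42. The kinase CDC7 (-0.67 in BxPC-3, -0.85 in AsPC-1), the cyclins CCNE2 (-0.48 and -0.66) and CCND1 (-0.15 and -0.48) and the factor E2F1 (0.28 and -0.08) did not pass in either line with all arrays. Without AsPC-1 PMA replicate 1, CCNA2 (adjusted p = 0.000515), SKP2 (adjusted p = 0.0276), DBF4 (adjusted p = 0.0282) and CDC7 (adjusted p = 0.0214) passed in BxPC-3, and CDC7 (-1.20, adjusted p = 0.000781) and CCND1 (-0.69, adjusted p = 0.0179) passed in AsPC-1.

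Mitotic genes, which act after replication, were read for comparison. Of 20, 3 fell in BxPC-3 (BUB1B, TTK and MAD2L1, all of the spindle checkpoint) with a median of -0.41, and 9 fell in AsPC-1 with a median of -1.05, against 3.3% and 0.721% of all genes lower. The counts without AsPC-1 PMA replicate 1 were 8 in BxPC-3 and 18 in AsPC-1, against 9.17% and 13.5% of all genes, and with passage as a replicate block they were 7 and 17, against 6.06% and 2.83%. The 4 largest of the 9 were the kinetochore protein NDC80 (-1.97 ± 0.45), the kinesin KIF11 (-1.57 ± 0.25), the topoisomerase TOP2A (-1.49 ± 0.25) and the kinase AURKA (-1.33 ± 0.23). In AsPC-1 KIF11 had 256, 134 and 135 with PMA, against 647, 448 and 435 untreated, so PMA replicate 1 lay below all untreated arrays for this gene. That array lay below the untreated range for TOP2A as well (443, 252 and 264 with PMA, against 1287, 648 and 792 untreated).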

How the data were processed

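The authors deposited signal intensity on a linear scale for 54675 probe sets on 12 arrays, made with MAS5 per the submitters' processing notes (version not given in the sources used here). Trimmed means of the arrays lay between 99.98 and 99.99, so they share a scale. Detection calls were not used here. Signals were turned into log2(signal + 3), on which fold changes of dim genes are understated. For each of 19775 genes with a probe set of 1 symbol the brightest probe set was kept, and genes above the array's 40th percentile on at least 3 arrays were tested (16099). Probe sets named with s or x may also read related transcripts.

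The 12 arrays entered 1 limma model of 4 group means (version 3.58.1, R 4.3.3), with an intensity trend in eBayes and 8 residual degrees of freedom. Tests were two-sided, with Benjamini-Hochberg adjustment over all genes and a threshold of 0.05. With 3 arrays a group, the smallest p of an exact test would be 0.1. Replicates are separate passages, and the number of arrays limits the precision. On simulated data with 200 changed genes a round, the fit for PMA in BxPC-3 recovered 27.4% of 2-fold and 71.2% of 4-fold changes. Of the simulated calls, 4.78% were false. A gene that did not pass is therefore not shown to be unchanged. Figures used matplotlib 3.10.9 in Python 3.11.15.

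Per the labels, a PMA array and the untreated array of the same number and line came from 1 passage, so they are paired. Across genes, the deviations of paired BxPC-3 arrays from their group means correlated at -0.037, -0.102 and -0.046, and those of paired AsPC-1 arrays at 0.37, 0.171 and 0.124.

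All 35 genes may be named. Values on every array are given for members past the threshold with PMA or in the difference of responses, for a set of licensing, helicase and clamp genes, and for the 5 largest rises and falls between lines. From other lists up to 4 called genes per PMA comparison and 8 further genes are named. Members, lists and the rule were chosen with earlier results of these data known. Alternatives were other scalings, pseudocounts, filters, probe set summaries, no eBayes trend, fits on the compared arrays only, the replicate block, and each array left out.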

Additional observations from a re-analysis of the deposited data

Results flagged for a closer look

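From the 35 genes, 2 were picked out because their PMA response had opposite signs in the lines in every passage pair. How many of all genes tested show this pattern was not counted, so the number says nothing particular about replication genes. RFC5 had a difference of responses (BxPC-3 minus AsPC-1) of -1.32 on the log2 scale (unadjusted p = 0.0343, adjusted p = 0.514 in limma, so it failed the correction). It was lower with PMA in 3 of 3 BxPC-3 pairs (-0.73, -1.31 and -0.67) and higher in 3 of 3 AsPC-1 pairs (0.39, 0.78 and 0.08). Its other 2 probe sets were negative in both lines. LIG1 had a difference of 0.92 (unadjusted p = 0.0336, adjusted p = 0.51). It was higher with PMA in 3 of 3 BxPC-3 pairs (0.03, 0.16 and 0.55) and lower in 3 of 3 AsPC-1 pairs (-0.48, -0.79 and -0.73), and it has 1 probe set.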

How the results depend on the processing

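The number of replication genes called with PMA in BxPC-3 (4, all lower) was 2 with probe sets marked s or x left out (26 genes tested). These were ORC1 and RFC4, since DTL and GMNN had no probe set without such a mark. The number was 2 with eBayes without trend (DTL and GMNN) and 15 with the 6 BxPC-3 arrays alone. Between the lines after PMA, 17 of 26 were called with those probe sets left out, against 26 of 35: CDC45, CDT1, FEN1, GMNN, MCM2, MCM7 and ORC6 had no other probe set that was tested, and GINS2 and MCM10, tested with another one, did not pass (adjusted p = 0.626 and 0.0553). With each array left out in turn, the counts ran from 2 to 10 for PMA in BxPC-3, from 0 to 21 for PMA in AsPC-1, from 19 to 31 between the lines after PMA, from 12 to 26 between the untreated lines and from 0 to 5 for the difference of responses. The highest AsPC-1 and BxPC-3 counts come without AsPC-1 PMA replicate 1, and those between untreated lines were 12 and 14 without untreated BxPC-3 replicates 1 and 2. With both AsPC-1 passage 8 arrays left out together, an alternative chosen after seeing the data, 16 were called with PMA in BxPC-3, 24 with PMA in AsPC-1 and 8 for the difference. The share of all genes called moved between settings too. Without AsPC-1 PMA replicate 1 it was 14.9% for PMA in BxPC-3 and 19.5% in AsPC-1, against 5.82% and 1.96% with all arrays. The counts here show how calls depend on the settings and are not set against all genes. With the replicate block of passage pairs the counts were 8, 5 and 1, and it moved no other count by over 1.5 times. GINS2 between the untreated lines turned to -1.35 with probe sets marked s or x left out. In the other settings run, 95 counts stayed within 1.5 times of those reported. The cause was not tested for the other changes. Signals near background limit CLSPN, CHAF1B and ORC1, whose lowest values were 1.94, 7.43 and 8.78.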
